A study of Mus musculus with 2 samples.

Results

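Myeloid C-type lectin receptors are cell-surface proteins that bind sugars, lipids and material from dying cells, and 8 of their genes were followed here in mouse blood leukocytes: Clec4n, Clec4d, Clec4e, Clec7a, Clec12a, Clec5a, Clec4a1 and Clec4a3. The genes were chosen by name, with earlier results of these data known, and were matched by gene symbol. Of the 8, 7 were among the 32285 genes listed with counts, and Clec7a, the receptor for fungal beta-glucan, was not analysed here. Single-cell RNA-seq was carried out on blood enriched for neutrophils, with 1 library from wild-type C57BL/6J (WT) mice and 1 library from APP/PS1 mice, a transgenic line used as a model of Alzheimer's disease. Each library pooled cells from 3 untreated female mice at 7 months of age, so a genotype is represented by 1 sample. The promoter that drives the transgenes was not given in the sources used here. With 1 library per genotype, no test between genotypes was possible and no p-value is given. All intervals are at the 95% level and reflect the error of counting alone, so that variation among mice is not in them. Transcripts were counted as unique molecular identifiers (UMIs, each standing for 1 captured transcript), and the unit CPM is the UMIs of a gene per 1000000 UMIs of a group of cells.

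Several of these receptors signal through short partner proteins. Clec4n (Dectin-2), Clec4d (MCL) and Clec4e (Mincle) pair with the Fc receptor gamma chain, encoded by Fcer1g, and Clec5a (MDL-1) pairs with the adaptor encoded by Tyrobp, after which the kinase Syk and the adaptor Card9 carry the signal to cytokine genes. Clec12a (MICL) instead carries an inhibitory motif that recruits phosphatases, and Clec4a1 and Clec4a3 belong to the group of dendritic cell immunoreceptor (DCIR) genes. In neutrophils and monocytes the activating receptors are known for the response to fungi, mycobacteria and necrotic cells.

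All 8 genes lie on chromosome 6 in GENCODE M21 on mm10. Clec4a1 (chr6:122921848-122934619) and Clec4a3 (chr6:122952515-122969875) lie side by side on the plus strand. They belong to a family of similar genes that includes Clec4a2, and reads that match more than one of these genes could be misassigned, so the levels of both are uncertain to that extent. Farther along lie Clec4n (chr6:123229843-123247021) and Clec4d (chr6:123262111-123275265), both on the plus strand, and Clec4e (chr6:123281789-123289870), on the minus strand and facing Clec4d. Clec12a (chr6:129342691-129365303, plus strand) and Clec5a (chr6:40574894-40585821, minus strand) lie apart from that group.

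The 250 bases before the start of 4 of these genes, from RefSeq on GRCm38.p6, are printed because the first pair, neighbours facing each other, was highest in neutrophils and the second pair was higher in monocytes. Each is given 5' to 3' on the strand of the gene, and capitals mark every match to the motifs searched on both strands. These were TTGCNNAA, letters known to be bound by C/EBP factors, and GAGGAA, the core bound by PU.1. The box near many start sites was searched as TATAAA, the element of AP-1 factors as TGANTCA, and a motif of NF-kB by its usual consensus.
Clec4d: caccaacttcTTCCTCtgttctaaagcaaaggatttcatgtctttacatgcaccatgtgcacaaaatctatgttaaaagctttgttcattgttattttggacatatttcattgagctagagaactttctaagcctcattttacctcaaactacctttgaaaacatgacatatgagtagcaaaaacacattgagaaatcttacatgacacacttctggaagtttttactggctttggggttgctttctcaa
Clec4e: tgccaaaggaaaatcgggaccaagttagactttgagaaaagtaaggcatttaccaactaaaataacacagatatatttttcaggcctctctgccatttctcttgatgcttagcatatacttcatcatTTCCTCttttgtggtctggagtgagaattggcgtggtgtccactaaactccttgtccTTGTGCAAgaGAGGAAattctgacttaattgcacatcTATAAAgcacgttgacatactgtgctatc
Clec12a: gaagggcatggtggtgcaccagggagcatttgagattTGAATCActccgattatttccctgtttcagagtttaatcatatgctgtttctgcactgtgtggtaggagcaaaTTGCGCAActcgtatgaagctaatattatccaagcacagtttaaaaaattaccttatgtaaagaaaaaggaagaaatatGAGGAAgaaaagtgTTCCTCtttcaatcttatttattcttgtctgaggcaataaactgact
Clec4a1: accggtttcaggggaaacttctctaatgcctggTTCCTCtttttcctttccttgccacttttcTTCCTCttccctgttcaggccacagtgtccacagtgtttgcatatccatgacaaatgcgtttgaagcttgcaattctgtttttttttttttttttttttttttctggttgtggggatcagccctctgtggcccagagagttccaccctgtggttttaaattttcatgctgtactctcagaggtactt
The windows lie at chr6:123261857-123262106 on the plus strand (Clec4d), chr6:123289872-123290121 on the minus strand (Clec4e), chr6:129349994-129350243 on the plus strand (Clec12a) and chr6:122921598-122921847 on the plus strand (Clec4a1). The Clec12a window precedes a RefSeq start that lies inside the GENCODE gene. The Clec4e window held a TATA box match that began 29 bases before the start, a C/EBP match at 66 bases and PU.1 matches at 56 and 123 bases. Clec4d had a single match, to PU.1, at 240 bases. In the Clec12a window a C/EBP match lay 140 bases before the start, with PU.1 matches at 61 and 47 bases and an AP-1 match at 213 bases, whereas Clec4a1 had PU.1 matches at 217 and 187 bases. Over all 27025 promoters of the same length, 23.1% held the PU.1 letters, 13% the TATA box, 9.55% the C/EBP letters, 6.87% the AP-1 letters and 0.337% the NF-kB letters. A match describes these letters and not a bound site.

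The WT library held 17123 barcodes and 92458623 UMIs, and the APP/PS1 library 17645 barcodes and 84870864 UMIs. The libraries shared 83 barcode sequences. After filtering, clusters were named by fixed markers, and 7587 WT and 9590 APP/PS1 cells were called neutrophils. The rest included 2491 and 1856 classical monocytes, 2934 and 1871 nonclassical monocytes and smaller numbers of lymphocytes, so the labelled neutrophil samples held other leukocytes too. Of the 4 clusters called neutrophils, 2 raised all 9 neutrophil markers and the others raised 8 and 5 of them. A cluster that raised all 9 (1755 WT and 2791 APP/PS1 cells) was led by the platelet genes Itga2b, Ppbp and Clec1b, and the comparison of libraries is therefore also given without it. Some monocytes carried neutrophil transcripts: when monocytes were clustered again, 1013 WT and 758 APP/PS1 cells fell into clusters led by S100a8, S100a9, Retnlg and Cxcr2. Monocyte levels are also given without those cells for Clec4e and Clec4d, and in nonclassical monocytes for Clec5a and Clec4n.

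The members fell into genes that were higher in neutrophils and genes that were higher in monocytes. Clec4n, Clec4d, Clec4e and Clec5a (4 of 7) were higher in neutrophils than in classical monocytes in both libraries, with intervals clear of 0, against 23.3% of the 10431 genes compared. Clec12a, Clec4a1 and Clec4a3 (3 of 7) were lower in neutrophils by the same criterion, against 61.7% of all genes. The plot of levels by cell type shows the 7 genes in both libraries.

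**Figure D1:**
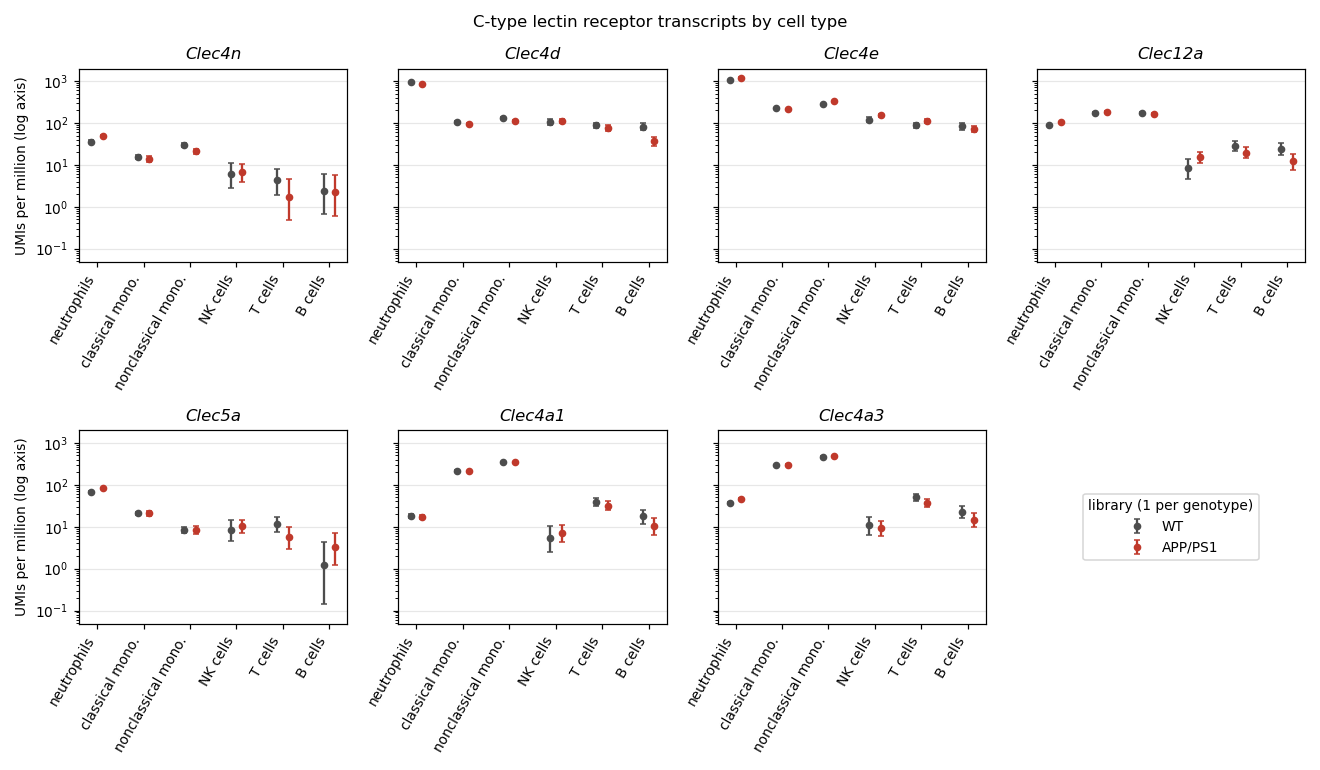
CPM (log axis) of each receptor gene in neutrophils, classical and nonclassical monocytes, NK, T and B cells of the WT and APP/PS1 libraries; points are sums over the cells of a group and bars are 95% Poisson intervals. Clec4d and Clec4e were highest in neutrophils, at 840.1 to 1209 CPM, and Clec4a1 and Clec4a3 in nonclassical monocytes, at 342 to 484 CPM.

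Clec4e, which senses mycobacterial cord factor and a nuclear protein released by dead cells, reached 1038 CPM (1025 to 1052) in WT neutrophils and 1209 (1196 to 1221) in APP/PS1 neutrophils. In classical monocytes it stood at 226 and 209 CPM, and in nonclassical monocytes at 278 and 325. The level in neutrophils was 4.60 times that of classical monocytes in the WT library and 5.77 times in the APP/PS1 library. Without the monocytes that carried neutrophil transcripts, Clec4e in classical monocytes was 179 and 141 CPM and in nonclassical monocytes 197 and 223. These monocyte levels were above those of T cells (88.0 and 111) and B cells (82.4 and 71.6), which are not known to use the receptor. APP/PS1 classical monocytes then lay below APP/PS1 NK cells (119 in WT and 151 in APP/PS1). Plasma cells had 206 and 240.2 CPM and erythroid cells 209 and 414. Clec4e in monocytes therefore did not stand clear of plasma and erythroid cells.

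Clec4d, which forms a complex with Clec4e, showed a level of 957 CPM (944 to 970.4) in WT neutrophils and 840.1 (829.6 to 851) in APP/PS1 neutrophils. Classical monocytes had 104 and 92.2 CPM and nonclassical monocytes 129.6 and 112. Neutrophils were 9.21-fold and 9.11-fold above classical monocytes. NK cells, a type without the receptor, had 105 and 113 CPM, close to the monocytes. Leaving out the monocytes with neutrophil transcripts lowered Clec4d to 49.6 and 40.3 CPM in classical and 36.3 and 29.2 in nonclassical monocytes, at or below most lymphocyte levels, and these values are read as background.

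Clec5a, which couples to the adaptors of Tyrobp and Hcst and recognizes dengue virus, had 66.1 CPM (62.7 to 69.6) in WT and 82.4 (79.1 to 85.7) in APP/PS1 neutrophils. Classical monocytes were lower in both libraries, at 20.9 and 20.8 CPM. Nonclassical monocytes had 8.33 and 8.54, or 1.92 and 2.46 without the cells carrying neutrophil transcripts, no higher than the lymphocyte range of 1.21 to 11.8.

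Clec4n, the receptor for fungal alpha-mannan, was the least clear-cut of the neutrophil genes. Its level was 35.5 CPM (33.0 to 38.1) in WT neutrophils and 49.7 (47.2 to 52.4) in APP/PS1 neutrophils. In nonclassical monocytes it was 30 (27.3 to 33.0) and 21.3 (18.4 to 24.5), and in classical monocytes 15 and 13.7. WT neutrophils and WT nonclassical monocytes lay close together, at a ratio of 1.18, whereas in the APP/PS1 library the ratio was 2.34. NK, T and B cells had 1.74 to 6.58 CPM.

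Clec12a, the inhibitory receptor, which recognizes uric acid crystals, was spread over all 3 myeloid types. Classical monocytes had 174 and 180.3 CPM and nonclassical monocytes 175 and 164, so the monocyte types did not separate in the WT library. Neutrophils had 86.8 (83.0 to 90.8) and 103 (99.1 to 106) CPM, 2.01-fold and 1.75-fold below classical monocytes. Lymphocytes had 8.39 to 27.9, below all of these.

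The DCIR genes Clec4a1 and Clec4a3 were monocyte genes with the same order in both libraries. Clec4a3 had 463 and 484 CPM in nonclassical and 297 and 297 in classical monocytes, and Clec4a1 342 and 342 in nonclassical and 214 and 211 in classical monocytes. In neutrophils Clec4a1 was 12.1-fold and 12.2-fold below classical monocytes, at 17.7 and 17.2 CPM, and Clec4a3 7.98-fold and 6.50-fold below, at 37.2 and 45.7. T cells had 38.3 and 31.8 CPM of Clec4a1 and 51.1 and 37.1 of Clec4a3, so neutrophils did not stand clear of T cells for either gene. NK cells were lower, at 5.39 and 6.93 CPM of Clec4a1 and 10.8 and 9.35 of Clec4a3.

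Among the rarer cells, basophils (73 WT and 43 APP/PS1 cells) had 216 (171 to 268) and 166 (116 to 229) CPM of Clec4e, above T and B cells, and 137 and 59.8 of Clec4d, while the other 5 genes had at most 17 UMIs in either library. Erythroid cells (259 and 139) carried 209 and 414 CPM of Clec4e and 182 and 246 of Clec4d, more than lymphocytes. Plasma cells, which are not known to use these receptors, had 206 (136 to 300.4) and 240.2 (176 to 319) CPM of Clec4e on 27 and 47 UMIs, so the Clec4e levels of basophils did not stand clear of theirs.

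Counts of cells set neutrophils apart from B cells for Clec4d, Clec4e and Clec4n. Each cell was thinned to 1000 UMIs, and 2 neutrophils and 1 NK cell of the APP/PS1 library had too few to enter. Clec4d was found in 59.1% (57.9 to 60.2) of WT and 55.5% (54.5 to 56.5) of APP/PS1 neutrophils, and Clec4e in 57.2% and 61.0%. In B cells the thinned shares were 6.58% and 2.61% for Clec4d and 5.92% and 4.89% for Clec4e. Median depth was 2553 and 2703 UMIs in neutrophils and 5004 and 5875 in B cells, and without thinning the neutrophil shares were 87.8% and 85.4% for Clec4d and 83.1% and 84.9% for Clec4e. Clec4n was found in only 3.36% and 4.84% of thinned neutrophils (7.79% and 10.9% unthinned), against 0.329% of WT B cells and 0 of 307 APP/PS1 B cells, for which the Clopper-Pearson upper bound was 1.19%. Thinned neutrophils had a mean of 1.389 of the 7 genes per cell in the WT library (SD 0.840 over cells) and 1.438 (SD 0.871) in the APP/PS1 library. Nonclassical monocytes had a mean of 1.162 genes in both libraries, classical monocytes 0.920 and 0.932, and NK, T and B cells 0.114 to 0.194. Without thinning, the means were 2.284 and 2.413 in neutrophils, 3.048 and 3.075 in nonclassical and 3.564 and 3.230 in classical monocytes. The order of neutrophils and monocytes thus depended on thinning.

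Within single neutrophils Clec4d and Clec4e were found together about as often as their separate shares gave, whereas pairs of less frequent genes lay farther from that product, on few cells. Clec4d and Clec4e were both found in 34.0% of thinned WT neutrophils and 34.2% of APP/PS1 neutrophils, where the product of the separate shares was 33.8% and 33.9%. For Clec4n and Clec4d the ratio of observed to product was 1.06 and 1.11, and for Clec12a and Clec4n, on 10 and 33 cells with both, 0.530 and 0.796. Clec4n and Clec4a3 gave 1.85 and 1.33 on 18 and 27 cells, and Clec4n and Clec5a 1.29 and 1.33 on 21 and 45 cells.

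Neutrophils were divided into clusters without using the 8 genes as features. Cells with high Retnlg, a gene of mature granulocytes, numbered 2939 WT and 2969 APP/PS1 cells, and a Retnlg-low cluster led by Dusp2, Clec4n, Csf1 and Nfkbia held 1617 and 2879. Nearly all of the rest fell into an interferon cluster led by Ifit1 and Ifit3, a platelet-carrying cluster and an immature cluster. The immature cluster was led by the granule genes Camp, Ngp and Ltf. The platelet-carrying cluster found here held 1234 WT and 1917 APP/PS1 cells. The one left out of the comparison of libraries is the larger one found among all cells. The levels that follow describe the neutrophil clusters and are not tests, since the clusters were made from the same cells. The plot of levels by neutrophil cluster gives all 7 genes.

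**Figure D2:**
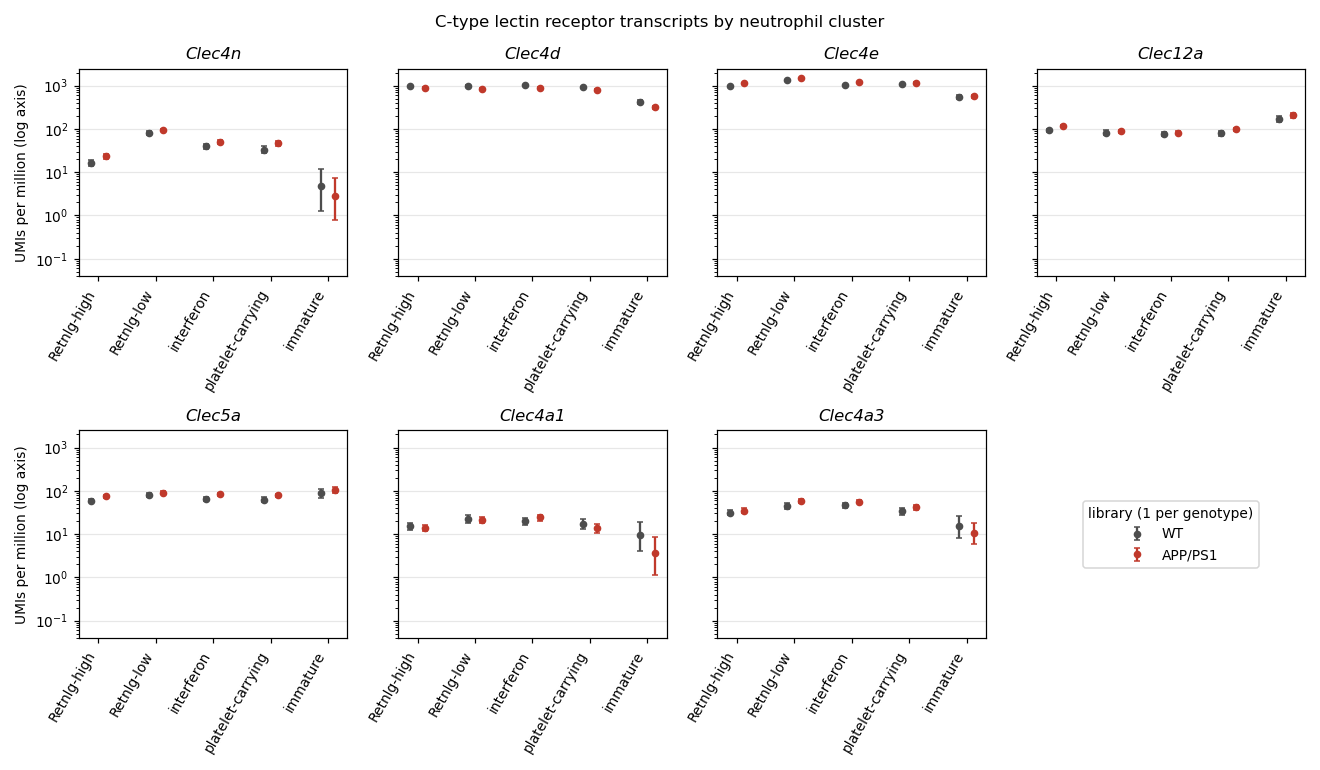
CPM (log axis) of each receptor gene in 5 neutrophil clusters of the WT and APP/PS1 libraries; points are sums over cells and bars are 95% Poisson intervals. Clec4n ran from 2.87 to 4.71 in immature cells to 80.6 and 94.9 in Retnlg-low cells, while Clec12a was highest in immature cells, at 169.6 and 206.

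Clec4n varied most across these clusters. Immature neutrophils had 4 UMIs in each library, or 4.71 (1.28 to 12.1) and 2.87 (0.781 to 7.34) CPM, levels like those of lymphocytes. Retnlg-high cells had 16.5 (13.8 to 19.6) and 23.4 (20.3 to 26.9), interferon cells 40.2 and 50.8, and Retnlg-low cells 80.6 (71.5 to 90.7) and 94.9 (87.7 to 102). The ratio of Retnlg-low to Retnlg-high cells was 4.88 in the WT library and 4.05 in the APP/PS1 library. The share of thinned cells with Clec4n followed the same order, 6.37% and 8.37% in Retnlg-low against 1.6% and 2.32% in Retnlg-high cells.

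Clec4n and Clec4a1 (2 of 7) were higher in Retnlg-low than in Retnlg-high cells by over 0.5 log2 in both libraries, against 15.2% of the 7098 genes compared. Clec4a1 was at 22.3 and 21.0 against 15.3 and 13.9 CPM, within the lymphocyte range. Summed nonclassical monocyte markers, all 10 with UMIs, were 881 and 927 CPM in Retnlg-low against 463 and 444 in Retnlg-high cells. Their part in these levels was not tested. The markers include Nr4a1, which was also among the leading genes of the Retnlg-low cluster. Summed classical monocyte markers went the other way, at 381 and 332 CPM in Retnlg-low against 429 and 395 in Retnlg-high cells. Clec4a3 was at 43.6 and 59.2 against 31.0 and 35.0, and its WT ratio of 0.50 log2 (0.19 to 0.79) lay at the threshold. Clec4e was higher in Retnlg-low cells by 0.47 and 0.36 log2 and Clec5a by 0.45 and 0.24, with intervals above 0. Clec4d was almost level, at 992 and 854 against 974 and 897 CPM. Clec12a ran the other way, by -0.17 log2 (-0.37 to 0.03) in the WT library and -0.39 (-0.54 to -0.24) in the APP/PS1 library. Retnlg-low cells had fewer UMIs per cell, with medians of 2120.0 and 2308 against 2636 and 2805, and with every cell thinned to 1000 UMIs Clec4n was the 1 member that still passed. Clec4a1 also fell below the threshold, and Clec4a3 passed it, when all variable features were kept in the clustering.

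In immature neutrophils, which had 160 WT and 220 APP/PS1 cells, Clec4d and Clec4e were lower than in the other clusters of the same library. Clec4d had 415 (372 to 460.2) and 313 (285 to 344) CPM and Clec4e 548 and 569. Clec12a was higher there than in any other of the 5 clusters plotted, at 169.6 (143 to 199.7) and 206 (183 to 232) CPM, at or above the level of monocytes. Clec5a was 88.3 (69.5 to 111) and 107 (90.4 to 125), above the Retnlg-high cells in both libraries, while its intervals overlapped those of Retnlg-low cells of the same library. Summed classical monocyte markers were 1188 and 1278 CPM in immature cells against 429 and 395 in Retnlg-high cells, and their part in these levels was not tested.

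The design sets the APP/PS1 library against the WT library. In neutrophils 0 of 7 members differed by over 0.5 log2, the fold used in the study, whereas 4.90% of the 8306 genes with at least 100 UMIs were higher and 3.62% lower in APP/PS1. With the platelet-carrying cluster left out, Clec4n passed that fold (1 of 7) against 4.88% of genes higher and 3.50% lower. The median ratio of the members was 0.24 log2 against 0.05 for all genes. Of the 7 members 5 were above 0, where the median of all genes also lay, and the share of all genes above 0 was not counted. The plot of library ratios gives each member by cell type.

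**Figure D3:**
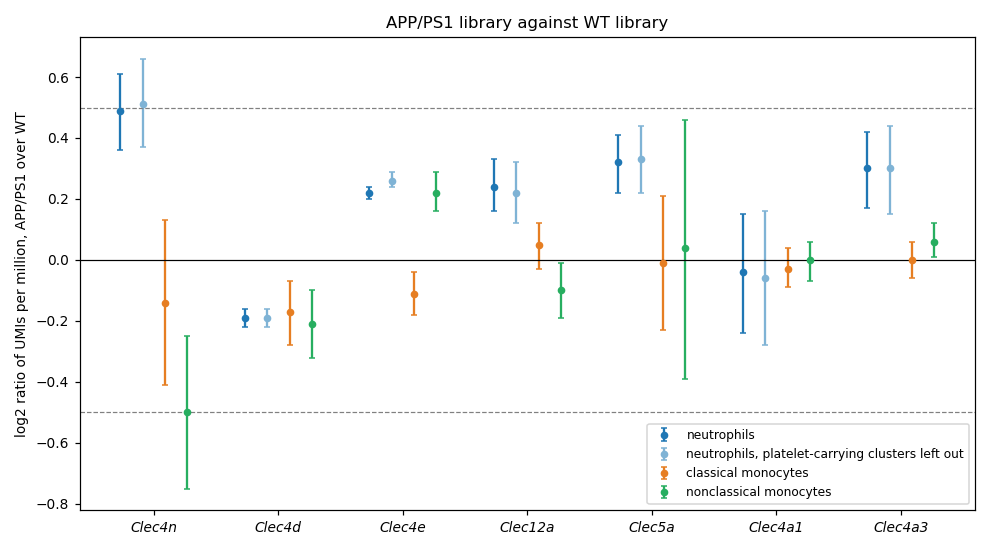
Log2 ratio of CPM, APP/PS1 library over WT library, for each receptor gene in neutrophils, neutrophils without platelet-carrying clusters, classical and nonclassical monocytes; bars are 95% intervals for counting error and dashed lines mark 0.5 and -0.5. Clec4n was at 0.49 in neutrophils and -0.50 in nonclassical monocytes, and Clec4d was below 0 in all 3 cell types, though at 0.01 in classical monocytes as a mean over cells.

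Clec4n had the widest gap in neutrophils, from 35.5 CPM in WT to 49.7 in APP/PS1, a ratio of 0.49 log2 (0.36 to 0.61), and 0.51 (0.37 to 0.66) without the platelet-carrying cluster. Retnlg-low cells, where Clec4n was highest, made up 21.3% (20.4 to 22.3) of WT and 30% (29.1 to 30.9) of APP/PS1 neutrophils. With the neutrophil clusters weighted alike in both libraries, a calculation added after the data had been seen, the ratio was 0.34 log2. Within clusters it was 0.50 (0.18 to 0.83) in Retnlg-high cells and 0.47 (0.15 to 0.80) in platelet-carrying cells. It was 0.34 (0.10 to 0.59) in interferon cells and 0.23 (0.03 to 0.44) in Retnlg-low cells. In Retnlg-high cells Clec4n was thereby just past the fold (1 of 7 members), against 3.41% of genes.

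Clec4d and Clec4e differed in opposite directions in neutrophils. Clec4d was at 957 CPM in WT and 840.1 in APP/PS1, or -0.19 log2 (-0.22 to -0.16), and Clec4e at 1038 and 1209, or 0.22 log2 (0.20 to 0.24). The directions were those of the Retnlg-high, Retnlg-low, interferon and platelet-carrying clusters too, with intervals clear of 0 in each. The ratio of the genes to each other does not depend on library size. There were 1.08 Clec4e UMIs per Clec4d UMI in WT and 1.44 in APP/PS1 neutrophils, a ratio of 1.33 (1.29 to 1.36). In the 5 clusters plotted that ratio was 1.25 to 1.38. A small neutrophil cluster led by mitochondrial genes, not plotted, had 1.02 (0.766 to 1.36). Nonclassical monocytes had a ratio of 1.35 (1.24 to 1.48) and classical monocytes 1.05 (0.961 to 1.14), but with Clec4d read as background in monocytes these values do not describe expression of both genes there. In T cells and B cells, where both transcripts are read as background, the ratio was 1.48 (1.11 to 1.98) and 1.94 (1.31 to 2.89). NK cells had 1.18 (0.910 to 1.52), with an interval that included 1.

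**Figure D4:**
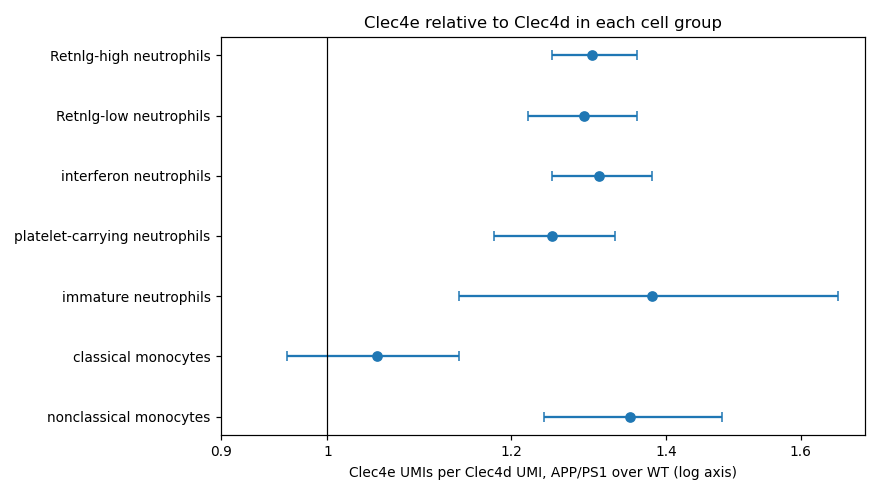
Clec4e UMIs per Clec4d UMI in the APP/PS1 library divided by the same quantity in the WT library (log axis), in 5 neutrophil clusters and both monocyte types; bars are 95% intervals for counting error. The neutrophil clusters lay between 1.25 and 1.38, and classical monocytes, at 1.05, had an interval that included 1, though Clec4d is read as background in monocytes.

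Clec5a and Clec12a were higher in APP/PS1 neutrophils by smaller amounts. Clec5a was at 66.1 and 82.4 CPM, 0.32 log2 (0.22 to 0.41) and 0.20 with cells thinned to 1000 UMIs, with ratios of 0.14 to 0.36 in the 5 clusters, where the intervals for Retnlg-low and immature cells included 0. Clec12a was at 86.8 and 103 CPM, 0.24 log2 (0.16 to 0.33), with 0.34 (0.20 to 0.48) in Retnlg-high cells and 0.12 in both Retnlg-low and interferon cells. Of the DCIR genes, Clec4a1 showed no difference beyond counting error (-0.04 log2, -0.24 to 0.15), and Clec4a3 had 0.30 log2 (0.17 to 0.42) at levels near those of T cells.

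Classical monocytes also had 0 of 7 members past the fold, against 2.35% of genes higher and 2.73% lower, and the members' median was -0.03 log2, the same as that of all genes. The 3 genes with higher levels in these cells hardly differed between libraries, at 0.05 (Clec12a), -0.03 (Clec4a1) and -0.00 log2 (Clec4a3), each with an interval that included 0. Clec4e was lower in APP/PS1 classical monocytes, at -0.11 log2 (-0.18 to -0.04), and at -0.35 (-0.44 to -0.25) without the cells carrying neutrophil transcripts. The ratio was -0.04 with cells thinned to 1000 UMIs and 0.03 as a mean over cells, so its direction depended on how cells were summed.

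In nonclassical monocytes 0 of 7 members passed, against 1.93% of genes higher and 2.96% lower. Clec4n lay at the threshold, at 30 and 21.3 CPM or -0.50 log2 (-0.75 to -0.25). Without the cells carrying neutrophil transcripts it was 27.5 and 16.4 CPM, -0.74 log2 (-1.06 to -0.44). This made 1 of the 6 members with at least 100 UMIs there lower, against 3.22% of genes. Clec4e was higher in APP/PS1, by 0.22 log2 (0.16 to 0.29), and by 0.18 (0.09 to 0.27) without the cells carrying neutrophil transcripts. For the same gene NK cells were at 0.34 (0.10 to 0.59), T cells at 0.33 (0.05 to 0.61) and B cells at -0.20 (-0.56 to 0.15). The difference in nonclassical monocytes thus did not exceed that in NK and T cells. Clec4a1 was level at -0.00 (-0.07 to 0.06).

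A small cluster of MHC class II-high monocytes and dendritic cells, with 103 WT and 71 APP/PS1 cells, differed more in the DCIR genes than the other monocytes did. Clec4a3 had 143 and 39 UMIs there, or 160.2 (135 to 189) and 63.5 (45.2 to 86.9) CPM, and Clec4a1 102 and 39 UMIs, or 114 (93.2 to 139) and 63.5. Both were lower in APP/PS1 by over 0.5 log2, at -1.33 (-1.88 to -0.81) and -0.85 (-1.42 to -0.30). They were 2 of the 3 members with at least 100 UMIs in these cells, against 6.23% of genes lower. The other was Clec12a, at -0.26 (-0.87 to 0.34). The cluster was led by Cd209a, Cd7, H2-Eb1 and H2-Ab1, and its leading genes also included Klrd1 and Klrk1. Whether the mix of cells in it differed between libraries was not tested.

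The genes that carry the signals of these receptors, where they had enough UMIs, lay within the fold in neutrophils, as did most genes. Of 24 signalling chain genes, 20 had at least 100 UMIs and 0 passed the fold in either direction. Among all genes compared, 4.90% were higher and 3.62% lower. The median of the signalling chain genes was 0.05 log2, the same as that of all genes. Fcer1g, the gamma chain that Clec4n, Clec4d and Clec4e pair with, was at 2552 and 2757 CPM (0.11 log2), and Tyrobp, the adaptor of Clec5a, at 7576 and 8318 (0.13 log2). Syk, the kinase that both adaptors recruit, was at 404 and 329 CPM, or -0.30 log2 (-0.34 to -0.25). Card9 was at 21.8 and 21.0 CPM, and Ptpn6, a phosphatase recruited by inhibitory receptors such as Clec12a, at 452 and 431 (-0.07 log2).

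Of 21 response genes that such signals can induce, 15 had enough UMIs, and 2 were higher and 1 was lower by over 0.5 log2. Among all genes compared, 4.90% were higher and 3.62% lower. The median of the response genes was 0.09 log2, against 0.05 for all genes. The higher genes were the early growth response factors Egr1, at 1883 and 3013 CPM (0.68 log2), and Egr2, at 40.5 and 71.0 (0.81 log2). Cxcl2, a chemokine that attracts neutrophils, was lower, at 4053 and 2701 (-0.59 log2). Il1b, the cytokine with the highest level of the list, was at 14991 and 14956 CPM, with a ratio of -0.00 log2.

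Other C-type lectin genes gave 13 of 37 with enough UMIs in neutrophils, of which 3 were higher and 1 was lower by over 0.5 log2. The shares of all genes were 4.90% higher and 3.62% lower. Clec2d, a ligand of NK cell receptors, was at 46.9 and 81.2 CPM (0.79 log2), Cd302 at 5.55 and 8.21 (0.56 log2) and Cd93 at 31.6 and 16.1 (-0.97 log2). Clec1b, a platelet receptor, was at 74.9 and 109.8 (0.55 log2) and no longer passed without the platelet-carrying cluster. Summed platelet markers in neutrophils were 752 and 917 CPM with that cluster and 329.8 and 337 without it. Clec4a2, the inhibitory DCIR gene near the members, was at 109 and 147 (0.44 log2).

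Among 25 genes within 1000000 bases of a member and with at least 100 UMIs in neutrophils, the median ratio was 0.13 log2. Clec2d and Clec1b (2 of 25) were higher by over 0.5 log2, against 4.90% of all genes. Klra17 (1 of 25) was lower, against 3.62%. Without the platelet-carrying cluster Clec1b was at 0.33 log2 and did not pass. Klra17, near Clec7a, was at 93.1 and 44.0 CPM (-1.08 log2), and the other 22 genes lay within the fold.

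The levels of the members were also compared with those of 8907 genes over 22 groups, 11 cell types or neutrophil clusters in each of the 2 libraries. These correlations describe groups that share libraries and depth and are given without a test. Clec4d was closest to Arg2 (Pearson r = 0.994) and Slpi (0.993), and Clec4e to Adipor1 (0.991) and Gm34084 (0.985), while Clec4d and Clec4e had an r of 0.962 with each other. Clec4n was closest to Marcks (0.937) and Iscu (0.934), with 0.804 to Clec4e. Clec5a was closest to Aatk (0.971) and Gm34680 (0.957), and Clec12a to Abcd2 (0.972) and Gdpd3 (0.969). Clec4a3 was closest to Csf1r (0.984), the receptor for the monocyte growth factor, and then to Clec4a1 (0.969), which was itself closest to Ctsb (0.974) and Pid1 (0.969).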

How the data were processed

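Single-cell RNA-seq had been carried out on 2 libraries of enriched blood neutrophils, 1 WT and 1 APP/PS1. The authors deposited raw UMI counts per gene and barcode, made with Cell Ranger 5.0.0 and the mm10 reference per the submitters' processing notes and not normalized. Total counts were 92458623 (WT) and 84870864 (APP/PS1).

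Barcodes between the 5th and 95th percentile of genes and UMIs of their library, with at most 10% mitochondrial UMIs, were kept. Clustering in Seurat 5.3.0 (R 4.3.3) used 2000 variable features, 15 principal components and resolution 0.2. Neutrophils were clustered again with anchors between libraries, raising the resolution by 0.05 until 6 clusters were found (at 0.25). The members and genes past 0.5 log2 between libraries were not used as features there. A cluster was named where at least 3 markers were raised, a rule set after clusters had been seen. Clustering the monocytes again (resolution 0.1) and leaving out those led by neutrophil markers, the weighting of neutrophil clusters and the unthinned cells were added after the data had been seen.

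UMIs were summed per library and cell type and divided by all UMIs of that type, given as CPM. Sums have exact Poisson, ratios exact conditional and shares exact Clopper-Pearson intervals, except that the Clec4e to Clec4d ratio used a normal approximation on the log scale for large counts. Since each UMI counts 1 transcript, levels were not divided by length. Genes with at least 100 UMIs over both libraries were compared. Doublets (the highest 8% of Scrublet scores per library, scanpy 1.11.5, 2382 cells) stayed in and were removed in an alternative. Correlations used log2(CPM + 1) over types with at least 100 cells.

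All members were named, with Fcer1g, Tyrobp, Syk, Card9 and Ptpn6; list genes past 0.5 log2 and the 3 highest of the response and lectin lists; the 2 genes most like each member; and neighbours past 0.5 log2. A gene that this rule selects is not reported here. The members and lists were chosen with earlier results of these data known. Alternatives were other cell filters, components, library sizes (edgeR 4.0.16 TMM), minima and folds, doublet removal and thinning.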

Additional observations from a re-analysis of the deposited data

Results flagged for a closer look

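Receptor genes whose ratio between libraries had opposite signs in 2 cell types, each with an interval clear of 0, are given here. Only neutrophils, classical monocytes and nonclassical monocytes were compared in this way. Other types were left out, among them the MHC class II-high cells, where Clec4a3 was at -1.33 log2 against 0.30 in neutrophils. These differences were not tested, since there was 1 library per genotype. For Clec4n the log2 ratio of APP/PS1 over WT in neutrophils minus that in nonclassical monocytes was 0.98. For Clec4e the neutrophil ratio minus the classical monocyte ratio was 0.33, and the classical monocyte ratio minus the nonclassical monocyte ratio was -0.33. Both rest on the negative sign of Clec4e in classical monocytes (-0.11 log2), which turned to 0.03 as a mean over cells. For Clec12a the neutrophil ratio minus the nonclassical monocyte ratio was 0.34.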

How the results depend on the processing

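No paired analysis was possible because there was 1 library per genotype, and the same limit leaves every ratio between libraries without a replicate check. The number of members past 0.5 log2 in neutrophils was 0 and became 1 (Clec4n) with doublets removed, with cells thinned to 1000 UMIs or with platelet-carrying clusters left out, and 3 at a fold of 0.25 log2. The number higher in Retnlg-low than in Retnlg-high cells was 2, and became 1 when thinned, 3 with 8 clusters and 4 at a fold of 0.25 log2. With all variable features kept it stayed 2, with Clec4a3 in place of Clec4a1. It could not be given with no percentile limits, with pooled percentiles or with 30 components, where both clusters were not found under these names. With a minimum of 30 UMIs the signalling chain, response and other lectin lists had 2, 6 and 8 genes past the fold, and at a fold of 0.25 log2 they had 2, 5 and 8. The difference between libraries in members per neutrophil was 0.049 thinned and 0.128 unthinned. The causes were not tested, apart from the lower limits, which admit more genes. Counts for classical monocytes and for neutrophils against monocytes stayed within 1.5 times the main count. In neutrophils, Clec4n ranged from 0.34 to 0.53 log2, Clec4d from -0.23 to -0.14, Clec4e from 0.17 to 0.26 and Clec5a from 0.20 to 0.34 over 11 alternatives, each with 1 sign, while Clec4a1, from -0.09 to 0.14, changed sign. In classical monocytes Clec4e ranged from -0.35 to 0.03 log2 and changed sign as a mean over cells. Clec4n at under 100 CPM and clusters under 100 cells are limited by depth.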
